A study of Mus musculus with 6 samples.

Results

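The 41 genes described here are mouse genes of cell division, 18 of mitosis and 23 of DNA replication. They were chosen by symbol for what their products do, with earlier results of these data known. All 41 were found among the 12027 rows of the deposited count table through their Ensembl identifiers. The libraries were made from the messenger RNA of whole livers. The donors were 8-week-old males of strain C57BL/6 that had undergone partial hepatectomy, an operation that removes part of the liver and is followed by regrowth of the rest. The groups were OGT-KO (genotype OGT-/y) at day 28 after surgery with its control (OGTfl/y), OGA-KO (OGA-/-) at day 28 with its control (OGAfl/fl), and the same OGA-KO and OGA control genotypes at day 14. OGT places O-GlcNAc, a single-sugar modification, on proteins inside the cell, and OGA takes it off. The series describes both deletions as specific to hepatocytes, and what drove the deletion is not given in the sources used here. Livers that had no hepatectomy, and an OGT pair at day 14, were not analysed here. Each group was 1 library of the pooled RNA of 3 mice, so that the spread between mice was not measured. In such whole liver pools, fewer cells of a type and less RNA per cell cannot be told apart.

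Library totals lay between 20433100 and 29327722 counts. All 41 genes had at least 1 CPM (the count scaled to library size) in 1 or more libraries, and all 41 entered the statistical fit. The hepatocyte markers were abundant in every library, with 10 of 10 detected and summed levels of 56131 CPM in OGT-KO, against 88839 CPM in OGT control and 94971 to 104129 CPM in the 4 OGA libraries. Oga had 317 counts in OGA-KO and 1760 in OGA control at day 28, and 282 in OGA-KO and 1525 in OGA control at day 14. Ogt had 1205 counts in OGT-KO and 1339 in OGT control. The Ogt count therefore gave no clear check of the OGT-KO label, since reads outside a deleted exon and reads from other cells can remain in it.

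DNA replication and mitosis are separate stages of the cell cycle. In S phase the MCM2-7 ring and CDC45 unwind the double helix, RPA coats the single strands, polymerases copy them on the PCNA sliding clamp that the RFC complex loads, and FEN1 and LIG1 join the fragments of the lagging strand. In mitosis CDK1 with its cyclins condenses the chromosomes and builds the spindle, the spindle checkpoint holds the cell until all chromosomes are attached, and the anaphase-promoting complex (APC/C) then destroys cyclins and securin. Many replication genes are known to be transcribed through E2F sites in their promoters at the entry to S phase. Many mitosis genes are known to be transcribed later, in G2, through the cell cycle homology region (CHR) bound by MuvB complexes, together with CCAAT boxes bound by NF-Y. Adult hepatocytes divide rarely. After hepatectomy they are known to re-enter the cycle within days and to leave it again as liver mass is restored.

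The promoters of the mitosis and replication genes held the letters of these elements in different shares. RefSeq promoter windows of the mouse build GRCm38.p6, each running from 250 bases before to 50 bases after a start, were found for 35 of the 41 genes, 15 of mitosis and 20 of replication. Ccna2, Foxm1, Kif20a, Mcm4, Pole and Rfc2 had no entry. The letters searched on both strands were TTTGAA or TTCGAA for the CHR, CCAAT for the CCAAT box, and TTTCCCGC, TTTCGCGC, TTTGGCGC, TTTGCCGC or TTCCCGCC for the E2F site, and E2F matches on both strands can overlap. A gene with several starts counted as a match if any of its windows held the letters. A CHR was found in 12 of 15 mitosis genes (80.0%) and in 5 of 20 replication genes (25.0%), against 16.4% of the 9523 genes that had both a row and a window, and 21.7% of all 27025 genes in the promoter table. An E2F site was found in 1 of 15 mitosis genes, Cdk1, and in 10 of 20 replication genes (50.0%), against 7.93% of genes with a row and 4.46% of the promoter table. CCAAT boxes were common to both, in 12 of 15 mitosis genes and 14 of 20 replication genes (70.0%), against 42.8% of genes with a row and 41.1% of the table. The 12 mitosis genes with a CHR were also the 12 with a CCAAT box, a pairing found in 6.65% of genes with a row. A match describes the letters in the window and not a bound site.

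The windows of the 3 mitosis genes with the highest OGT-KO ratios and an entry are shown first, because they carry the CHR and CCAAT pairing, which is in capitals. They are Ube2c at chr2:164769679-164769978 on the plus strand, Prc1 at chr7:80294201-80294500 on the plus strand and Mki67 at chr7:135716330-135716629 on the minus strand. In Ube2c, one CCAAT box overlaps the next in the run CCAATTGG. Each sequence is written 5′ to 3′ in the direction of the gene.
Ube2c: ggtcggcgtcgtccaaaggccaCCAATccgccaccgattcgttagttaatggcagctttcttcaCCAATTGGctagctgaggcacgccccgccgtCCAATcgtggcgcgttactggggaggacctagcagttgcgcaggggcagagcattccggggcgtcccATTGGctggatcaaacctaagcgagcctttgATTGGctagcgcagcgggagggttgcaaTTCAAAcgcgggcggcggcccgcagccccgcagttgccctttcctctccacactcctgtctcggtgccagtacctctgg
Prc1: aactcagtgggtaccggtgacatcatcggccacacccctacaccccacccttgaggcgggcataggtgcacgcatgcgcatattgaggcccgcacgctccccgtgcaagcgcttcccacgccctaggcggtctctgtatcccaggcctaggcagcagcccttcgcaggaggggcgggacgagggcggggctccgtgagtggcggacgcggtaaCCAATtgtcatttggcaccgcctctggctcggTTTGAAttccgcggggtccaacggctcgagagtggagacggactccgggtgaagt
Mki67: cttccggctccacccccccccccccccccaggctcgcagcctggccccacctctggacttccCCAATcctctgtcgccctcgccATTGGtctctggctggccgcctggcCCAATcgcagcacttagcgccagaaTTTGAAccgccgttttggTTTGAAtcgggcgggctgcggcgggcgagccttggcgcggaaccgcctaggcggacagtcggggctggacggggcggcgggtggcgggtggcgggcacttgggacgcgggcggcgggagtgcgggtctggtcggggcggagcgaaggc

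The windows of 6 replication genes show more varied arrangements. Mcm5 (chr8:75109259-75109558, plus strand) and Mcm6 (chr1:128359656-128359955, minus strand) were chosen after the motif search and are shown for their E2F sites, which overlap on both strands in each gene and stand beside CCAAT boxes with no CHR. Lig1 (chr7:13278576-13278875, plus strand) and Rrm2 (chr12:24708004-24708303, plus strand) had, with Cdc45 (chr16:18811923-18812222, minus strand), the highest OGT-KO ratios of the replication genes with an entry. The Lig1 window has 1 E2F site, the Rrm2 window 1 CCAAT box, and the Cdc45 window 2 CHR and 2 CCAAT boxes. Rpa1 (chr11:75348334-75348633, minus strand) had the lowest ratio and has 2 CCAAT boxes. Capitals mark the E2F sites, CCAAT boxes and CHR.
Mcm5: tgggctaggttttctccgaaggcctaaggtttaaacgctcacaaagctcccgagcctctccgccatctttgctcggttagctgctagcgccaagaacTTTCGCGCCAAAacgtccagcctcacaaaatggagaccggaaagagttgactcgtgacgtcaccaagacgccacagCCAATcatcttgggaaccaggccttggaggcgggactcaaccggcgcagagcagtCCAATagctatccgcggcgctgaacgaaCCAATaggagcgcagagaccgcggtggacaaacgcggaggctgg
Mcm6: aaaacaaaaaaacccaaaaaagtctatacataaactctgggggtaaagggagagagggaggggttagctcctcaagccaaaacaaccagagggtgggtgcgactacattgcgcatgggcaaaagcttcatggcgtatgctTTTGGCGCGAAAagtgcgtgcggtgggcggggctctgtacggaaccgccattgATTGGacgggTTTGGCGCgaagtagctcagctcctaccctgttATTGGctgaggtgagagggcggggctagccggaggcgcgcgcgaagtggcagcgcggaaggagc
Lig1: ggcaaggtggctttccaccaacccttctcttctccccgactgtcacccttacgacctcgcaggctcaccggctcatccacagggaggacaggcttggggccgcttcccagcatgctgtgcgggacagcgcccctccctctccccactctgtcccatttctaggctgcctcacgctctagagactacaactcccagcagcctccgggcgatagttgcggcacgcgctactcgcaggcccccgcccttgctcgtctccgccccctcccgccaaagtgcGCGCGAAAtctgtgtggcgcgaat
Rrm2: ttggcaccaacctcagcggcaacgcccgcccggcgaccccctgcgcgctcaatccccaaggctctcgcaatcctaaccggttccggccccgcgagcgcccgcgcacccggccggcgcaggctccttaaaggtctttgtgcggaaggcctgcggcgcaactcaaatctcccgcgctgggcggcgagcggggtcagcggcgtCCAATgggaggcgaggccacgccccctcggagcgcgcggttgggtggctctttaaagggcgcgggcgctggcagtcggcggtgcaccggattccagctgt
Cdc45: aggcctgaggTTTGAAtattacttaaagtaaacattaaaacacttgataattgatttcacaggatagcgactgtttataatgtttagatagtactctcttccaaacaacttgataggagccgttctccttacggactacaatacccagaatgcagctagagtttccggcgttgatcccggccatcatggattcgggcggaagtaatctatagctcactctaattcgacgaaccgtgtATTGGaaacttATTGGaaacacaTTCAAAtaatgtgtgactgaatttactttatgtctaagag
Rpa1: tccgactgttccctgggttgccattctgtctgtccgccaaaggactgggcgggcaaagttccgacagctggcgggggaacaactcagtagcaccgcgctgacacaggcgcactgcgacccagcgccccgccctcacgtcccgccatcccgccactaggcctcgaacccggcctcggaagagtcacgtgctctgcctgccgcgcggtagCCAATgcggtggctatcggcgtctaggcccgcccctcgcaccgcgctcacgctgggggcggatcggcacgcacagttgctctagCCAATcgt

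The OGT-KO library at day 28 stood above the other 5 for nearly every gene of both groups. It held the highest level of 17 of 18 mitosis genes and of 22 of 23 replication genes, the exceptions being Ccnf and Rpa1, against 36.9% of all genes. Summed over the 18 mitosis genes, the level was 316 CPM in OGT-KO (95% counting interval 310 to 323), against 68.7 CPM in OGT control, 49.4 and 68.0 CPM in OGA-KO and OGA control at day 28, and 52.3 and 61.7 CPM in OGA-KO and OGA control at day 14. Summed over the 23 replication genes, it was 447 CPM in OGT-KO (439 to 455), against 236 CPM in OGT control, 179 and 210 CPM in OGA-KO and OGA control at day 28, and 180 and 183 CPM in OGA-KO and OGA control at day 14. The ratio of OGT-KO to OGT control was thus 4.61-fold for the mitosis sum and 1.90-fold for the replication sum. Levels are CPM with TMM sizes, a scaling that sets the bulk of genes equal between libraries. Intervals here and below cover counting error only, because 1 pooled library per group leaves no spread within groups. Reads that carry no molecular identifier can be copies of 1 molecule, so even the counting error may be understated.

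**Figure D1:**
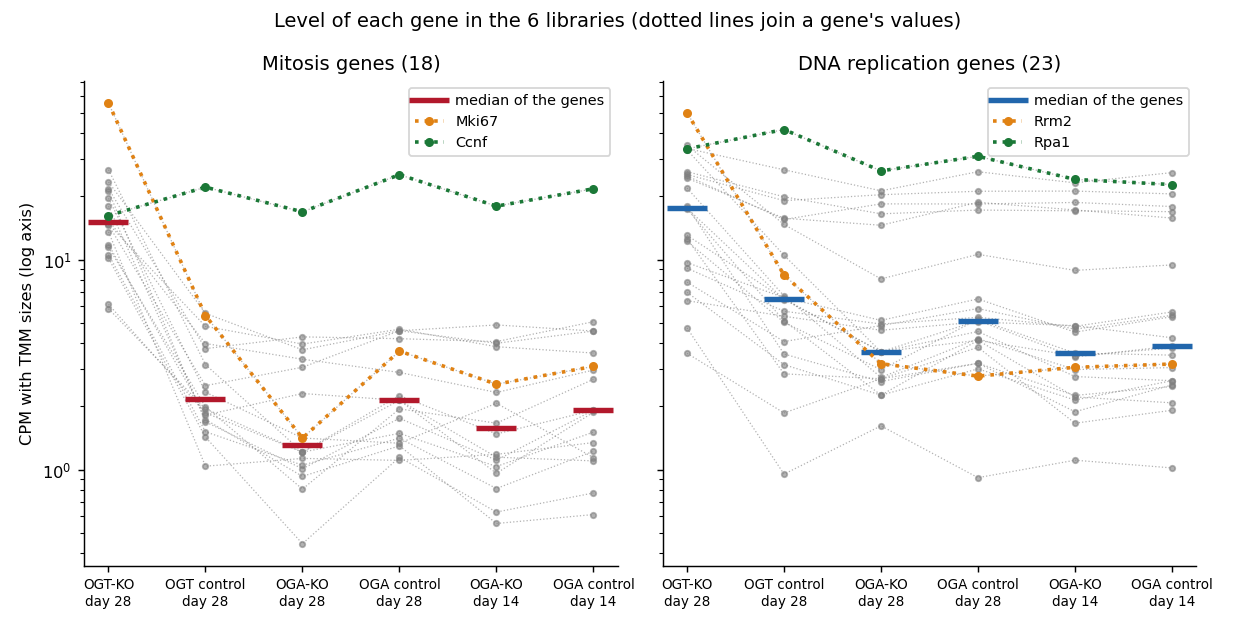
Level of each mitosis gene (left) and DNA replication gene (right) in the 6 pooled libraries, in CPM with TMM sizes on a log axis. Grey dots are genes, thick bars the median of the genes, and dotted lines join the values of 1 gene. OGT-KO holds the highest value of 17 of 18 mitosis genes and 22 of 23 replication genes, with Ccnf and Rpa1 as the exceptions drawn in green.

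By gene, 17 of 18 mitosis genes were at least 2-fold higher in OGT-KO than in OGT control and 0 were 2-fold lower. The same rule, with at least 1 CPM in the higher library, passed 16.4% of the 11803 genes measured in that pair as higher and 11.7% as lower. Of the replication genes 11 of 23 were 2-fold higher and 0 lower, and by library totals 17 of 23 were 2-fold higher (23.8% of all genes). A 4-fold difference was reached by 13 mitosis genes and 4 replication genes, Rrm2, Lig1, Cdc45 and Pole, where 6.4% of all genes were 4-fold higher. The median log2 ratio was 2.57 for the mitosis genes and 0.996 for the replication genes, against 0 for all genes. Counting intervals lay wholly above 0 for 38 of the 41 and wholly below 0 for 2, Ccnf and Rpa1, against 39.5% and 39.3% of all genes. The ranges of both groups overlapped, but 17 of 18 mitosis genes lay above the replication median, and 0 of 23 replication genes lay above the mitosis median.

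**Figure D2:**
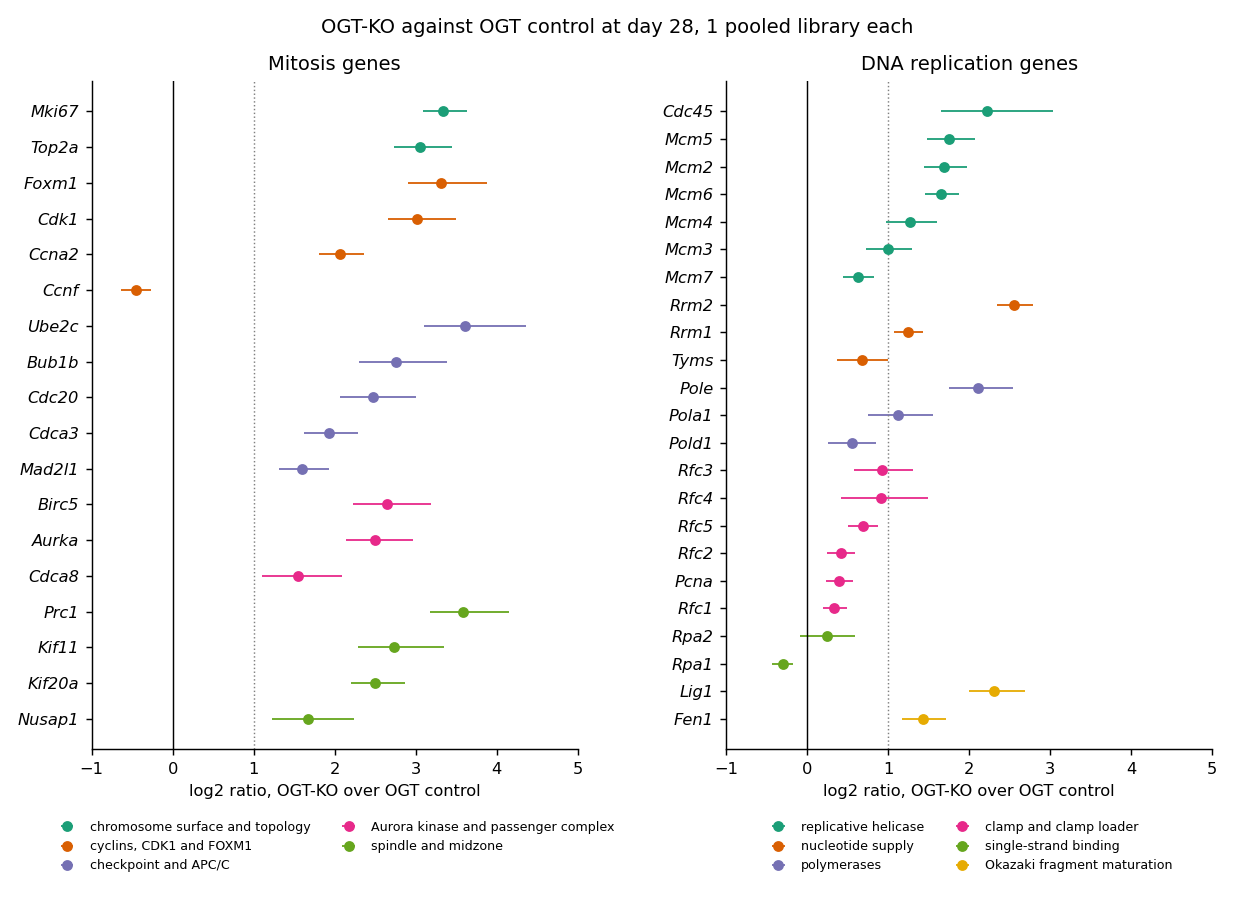
Log2 ratio of OGT-KO to OGT control at day 28 for each mitosis gene (left) and replication gene (right), coloured by role. Points are ratios of 1 pooled library each, bars are 95% counting intervals, the solid line is no difference and the dotted line a 2-fold difference. Most mitosis genes lie between 1.54 and 3.61, and Rpa2, Rpa1 and Rfc1 lie nearest to 0.

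The fit with edgeR's quasi-likelihood test (Benjamini-Hochberg adjusted p under 0.05 over 12026 genes) called 36 of the 41 genes as risen in OGT-KO and 0 as fallen, 17 of mitosis and 19 of replication. The same fit called 26.1% of all genes tested as risen and 26.6% as fallen, so that calls were frequent in this library. The genes that did not pass were Pold1 (edgeR adjusted p = 0.0559), Rfc1 (0.062), Ccnf (0.0643), Rpa1 (0.123) and Rpa2 (0.408). The fit took its spread from the OGA libraries with 1 residual degree of freedom, which assumes that the OGT libraries, 1 per genotype, vary as those do. DESeq2 called 20 of the 41 as risen (14 of mitosis and 6 of replication), where it called 10% of all genes as risen and 14% as fallen, and edgeR without a term for the mouse line called 29 (17 and 12, with 13.4% of all genes risen and 11.8% fallen), all of them among the 36.

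The proliferation marker genes on the chromosome were high together. Mki67, whose protein Ki-67 coats mitotic chromosomes, had 1550 counts in OGT-KO and 125 in OGT control, 35 and 96 in OGA-KO and OGA control at day 28, and 69 and 76 in OGA-KO and OGA control at day 14. The OGT-KO value stood 10.1-fold above OGT control (log2 3.34, interval 3.09 to 3.63, edgeR adjusted p = 0.000679). Top2a, the topoisomerase that untangles sister chromatids, had 747 counts in OGT-KO and 73 in OGT control, 30 and 59 in OGA-KO and OGA control at day 28, and 40 and 47 in OGA-KO and OGA control at day 14. It rose 8.28-fold in OGT-KO (log2 3.05, interval 2.73 to 3.45, edgeR adjusted p = 0.000457). In both genes the OGA-KO library of day 28 was the lowest of the 6.

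Among the cyclins and their partners, 3 of 4 were over 4-fold higher in OGT-KO. Foxm1, a transcription factor of G2 and mitosis genes, had 501 counts in OGT-KO and 40 in OGT control, 23 and 34 in OGA-KO and OGA control at day 28, and 15 in each library of day 14. It rose 9.95-fold in OGT-KO (log2 3.31, interval 2.91 to 3.87). Cdk1, the kinase that starts mitosis, rose 8.12-fold (log2 3.02, interval 2.66 to 3.49). Ccna2, the cyclin of S phase and G2, had 653 counts in OGT-KO and 128 in OGT control, 92 and 120 in OGA-KO and OGA control at day 28, and 132 and 112 in OGA-KO and OGA control at day 14. It rose 4.17-fold in OGT-KO (log2 2.06, interval 1.80 to 2.36), and 12.5% of its exon bases overlap Exosc9 on the other strand. Ccnf, cyclin F, a subunit of a ubiquitin ligase that does not partner a CDK, did not pass. It had 452 counts in OGT-KO and 510 in OGT control, 417 and 663 in OGA-KO and OGA control at day 28, and 485 and 532 in OGA-KO and OGA control at day 14. Its log2 ratio in OGT-KO was -0.45 (interval -0.63 to -0.26, edgeR adjusted p = 0.0643), and scaling by library totals gave -0.08. In CPM with TMM sizes the OGT-KO library held the lowest Ccnf level of the 6, at 16.2, against 16.9 to 25.3 in the others. This rank depended on the scaling. By library totals OGT-KO stood above OGA-KO of either day and OGA control of day 14, and below OGT control and OGA control of day 28.

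The checkpoint and APC/C genes were 2-fold or more higher in 5 of 5 cases. Ube2c, the ubiquitin-conjugating enzyme of the APC/C, had 378 counts in OGT-KO and 24 in OGT control, 28 and 29 in OGA-KO and OGA control at day 28, and 32 and 33 in OGA-KO and OGA control at day 14. The 5 libraries other than OGT-KO thus held 24 to 33 counts each, and the gene rose 12.2-fold in OGT-KO, the highest ratio of the 41 (log2 3.61, interval 3.11 to 4.36, edgeR adjusted p = 0.000529). In the GENCODE annotation 22.8% of its exon bases overlap Tnnc2 on the other strand, so its reads are uncertain where counting ignored strand. Bub1b, a checkpoint kinase, and Cdc20, the APC/C activator, stood at log2 2.76 (interval 2.30 to 3.39) and 2.47 (2.07 to 3.00). Cdca3, a trigger of mitotic entry, stood at 1.93 (1.62 to 2.29). Mad2l1, which encodes the checkpoint protein MAD2, was the lowest, with 412 counts in OGT-KO and 111 in OGT control, 98 and 122 in OGA-KO and OGA control at day 28, and 104 and 88 in OGA-KO and OGA control at day 14. It rose 3.04-fold in OGT-KO (log2 1.60, interval 1.31 to 1.93).

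The Aurora kinase gene and the passenger complex genes, which correct attachments of chromosomes to the spindle, rose as well. Birc5, encoding survivin, had 329 counts in OGT-KO and 42 in OGT control, 57 and 56 in OGA-KO and OGA control at day 28, and 31 and 27 in OGA-KO and OGA control at day 14. It rose 6.25-fold (log2 2.64, interval 2.23 to 3.19). Aurka, the Aurora A kinase of the spindle poles, rose 5.67-fold (log2 2.50, interval 2.14 to 2.96). Cdca8, encoding borealin, had 163 counts in OGT-KO and 45 in OGT control, 30 and 56 in OGA-KO and OGA control at day 28, and 26 and 46 in OGA-KO and OGA control at day 14. It rose 2.92-fold in OGT-KO (log2 1.54, interval 1.10 to 2.09), the smallest ratio among the 17 mitosis genes that rose.

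The 4 spindle and midzone genes rose by unequal amounts, from log2 1.68 to 3.59. Prc1, which bundles microtubules between the separating chromosomes, had 591 counts in OGT-KO and 39 in OGT control, 25 and 46 in OGA-KO and OGA control at day 28, and 30 and 47 in OGA-KO and OGA control at day 14. It rose 12.0-fold in OGT-KO (log2 3.59, interval 3.18 to 4.15, edgeR adjusted p = 0.000317), and 11.1% of its exon bases overlap Rccd1. Kif11, the motor that pushes spindle poles apart, and Kif20a, a motor of cytokinesis, rose 6.67-fold (log2 2.74, interval 2.29 to 3.35) and 5.67-fold (log2 2.50, interval 2.20 to 2.87). Cdc23 lies over 29.3% of the exon bases of Kif20a on the other strand. Nusap1, a spindle-associated protein, had 171 counts in OGT-KO and 43 in OGT control, 30 and 39 in OGA-KO and OGA control at day 28, and 28 and 37 in OGA-KO and OGA control at day 14, and rose 3.20-fold in OGT-KO (log2 1.68, interval 1.23 to 2.23).

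The replication genes split by role. The 7 genes of the replicative helicase had a median log2 ratio of 1.66 in OGT-KO, the 3 of nucleotide supply 1.25, the 3 polymerases 1.12, the 2 of Okazaki fragment maturation 1.87, the 6 of the clamp and its loader 0.55 and the 2 RPA genes -0.03. Of the 5 mitosis role groups the lowest median was 2.47, in the checkpoint and APC/C genes.

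In the helicase, Cdc45 had the highest ratio on few counts, with 132 in OGT-KO and 22 in OGT control, 40 and 24 in OGA-KO and OGA control at day 28, and 30 and 25 in OGA-KO and OGA control at day 14. It rose 4.66-fold in OGT-KO (log2 2.22, interval 1.65 to 3.03). The 6 subunits of the MCM2-7 ring all rose, by unequal amounts. Mcm2 had 611 counts in OGT-KO and 155 in OGT control, 68 and 110 in OGA-KO and OGA control at day 28, and 81 and 75 in OGA-KO and OGA control at day 14, and rose 3.23-fold in OGT-KO (log2 1.69, interval 1.45 to 1.97). Mcm5 and Mcm6 rose to a similar extent (log2 1.75 and 1.66), Mcm4 and Mcm3 less (1.27 and 0.996). Mcm7 rose least, with 681 counts in OGT-KO and 363 in OGT control, 360 and 490 in OGA-KO and OGA control at day 28, and 465 and 386 in OGA-KO and OGA control at day 14 (log2 0.63, interval 0.45 to 0.82, edgeR adjusted p = 0.0449). The intervals of Mcm7 and Mcm2 did not meet. Mcm7 hosts Mir25 and Mir93 and overlaps Ap4m1 on the other strand (7.25% of its exon bases).

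**Figure D3:**
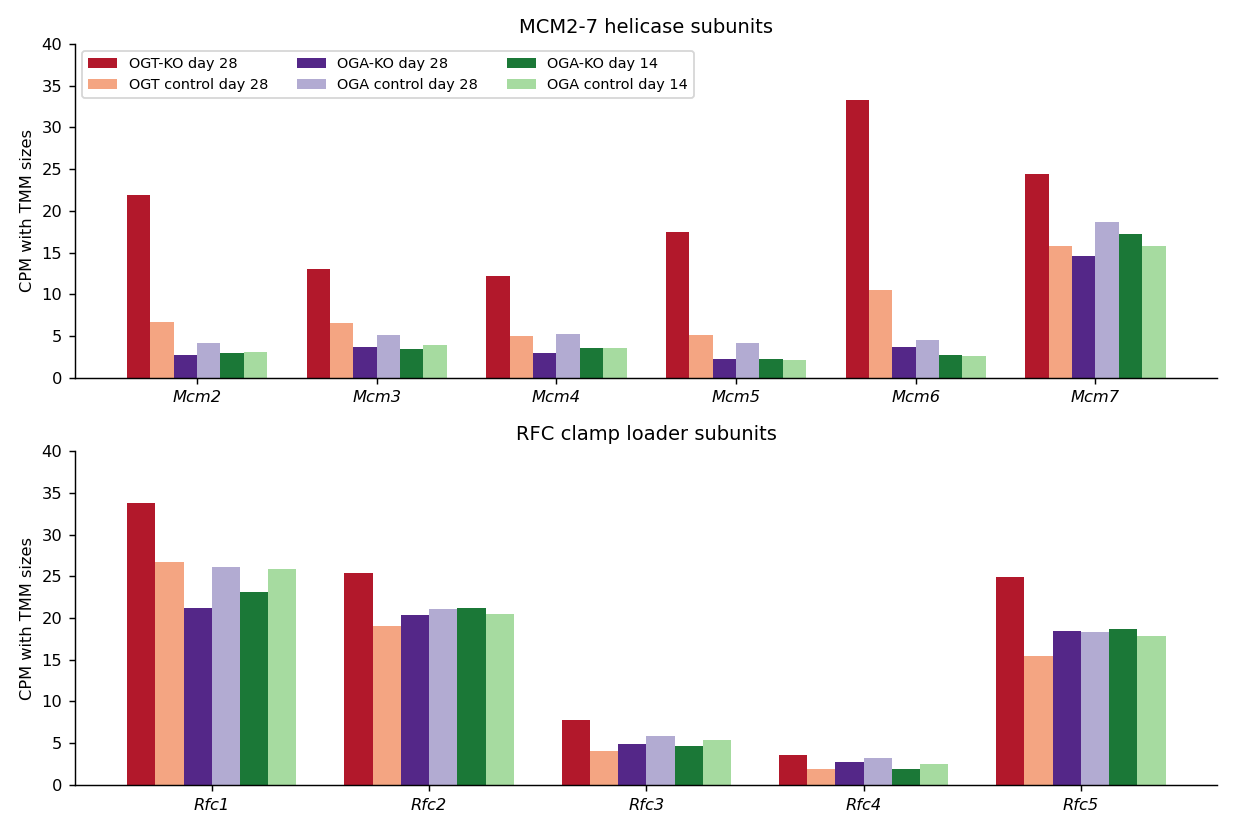
Levels of the 6 MCM2-7 helicase subunits (top) and the 5 RFC clamp loader subunits (bottom) in the 6 pooled libraries, in CPM with TMM sizes. Each bar is 1 library. The OGT-KO bar is the tallest for every subunit, by 3.23-fold over OGT control in Mcm2 and by 1.26-fold in Rfc1.

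Among the replication roles, nucleotide supply showed the widest spread. Rrm2, the subunit of ribonucleotide reductase whose level is known to follow S phase, had 1394 counts in OGT-KO and 195 in OGT control, 79 and 73 in OGA-KO and OGA control at day 28, and 83 and 78 in OGA-KO and OGA control at day 14. It rose 5.86-fold in OGT-KO (log2 2.55, interval 2.35 to 2.79), with the smallest adjusted p of the 41 (edgeR adjusted p = 0.000288). Rrm1, its partner subunit, had 976 counts in OGT-KO and 339 in OGT control, 200 and 277 in OGA-KO and OGA control at day 28, and 240 and 231 in OGA-KO and OGA control at day 14, and rose 2.37-fold (log2 1.25, interval 1.07 to 1.43). Tyms, thymidylate synthase, had 254 counts in OGT-KO and 131 in OGT control, 122 and 139 in OGA-KO and OGA control at day 28, and 130 and 138 in OGA-KO and OGA control at day 14, and rose 1.59-fold (log2 0.67, interval 0.37 to 0.996, edgeR adjusted p = 0.0347).

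Of the polymerases, the leading-strand enzyme differed most. Pole, its catalytic subunit, had 351 counts in OGT-KO and 66 in OGT control, 67 and 100 in OGA-KO and OGA control at day 28, and 45 and 47 in OGA-KO and OGA control at day 14. It rose 4.31-fold in OGT-KO (log2 2.11, interval 1.75 to 2.54). Pola1, of the primase-polymerase that starts each fragment, rose 2.18-fold (log2 1.12, interval 0.75 to 1.55). Pold1, the lagging-strand polymerase, had 270 counts in OGT-KO and 152 in OGT control, 127 and 170 in OGA-KO and OGA control at day 28, and 122 and 131 in OGA-KO and OGA control at day 14. Its log2 ratio was 0.55 (interval 0.26 to 0.85) and it did not pass edgeR (adjusted p = 0.0559).

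The fragment-joining enzymes rose, and the clamp gene rose by less. Lig1, the DNA ligase of the lagging strand, had 500 counts in OGT-KO and 82 in OGT control, 65 and 84 in OGA-KO and OGA control at day 28, and 61 in each library of day 14. It rose 4.95-fold in OGT-KO (log2 2.31, interval 1.99 to 2.69, edgeR adjusted p = 0.000767). Fen1, the flap nuclease, had 490 counts in OGT-KO and 149 in OGT control, 90 and 108 in OGA-KO and OGA control at day 28, and 94 and 93 in OGA-KO and OGA control at day 14. It rose 2.70-fold (log2 1.43, interval 1.18 to 1.72), but 78.8% of its exon bases overlap the antisense gene Gm10143, so its reads are uncertain where counting ignored strand. Pcna had 731 counts in OGT-KO and 459 in OGT control, 408 and 450 in OGA-KO and OGA control at day 28, and 461 and 414 in OGA-KO and OGA control at day 14. It rose 1.32-fold (log2 0.40, interval 0.23 to 0.57, edgeR adjusted p = 0.0496), and its processed pseudogenes make the assignment of its reads uncertain.

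The 5 RFC subunits lay between log2 0.34 and 0.93 in OGT-KO, and 0 of 5 reached 2-fold, where 16.4% of all genes were 2-fold higher. This depended on the scaling. By library totals Rfc3, Rfc4 and Rfc5 passed 2-fold, at log2 1.29, 1.27 and 1.05, where 23.8% of all genes were 2-fold higher. Rfc3 was the highest, with 218 counts in OGT-KO and 94 in OGT control, 120 and 153 in OGA-KO and OGA control at day 28, and 126 and 133 in OGA-KO and OGA control at day 14 (log2 0.93, interval 0.58 to 1.30). Rfc1, the large subunit, was the lowest, with 943 counts in OGT-KO and 617 in OGT control, 525 and 685 in OGA-KO and OGA control at day 28, and 626 and 635 in OGA-KO and OGA control at day 14 (log2 0.34, interval 0.19 to 0.49, edgeR adjusted p = 0.062). Rfc2, Rfc4 and Rfc5 rose, at log2 0.41, 0.91 and 0.68, and each overlaps a gene on the other strand over 10.7% to 15.1% of its exon bases. For Rfc2, Rfc3, Rfc4 and Rfc5 the OGT control held the lowest level of all libraries. In these genes OGT-KO stood 1.20-fold, 1.34-fold, 1.12-fold and 1.34-fold above the highest of the other libraries.

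The RPA genes, which also serve DNA repair outside S phase, were the members nearest to no difference. Rpa1 had 939 counts in OGT-KO and 959 in OGT control, 653 and 811 in OGA-KO and OGA control at day 28, and 650 and 557 in OGA-KO and OGA control at day 14. Its log2 ratio in OGT-KO was -0.30 (interval -0.44 to -0.17, edgeR adjusted p = 0.123) with TMM sizes and 0.07 by library totals, so its direction depended on the scaling. Rpa2 had 178 counts in OGT-KO and 124 in OGT control, 114 and 132 in OGA-KO and OGA control at day 28, and 131 and 104 in OGA-KO and OGA control at day 14 (log2 0.24, interval -0.09 to 0.59). Scaling by library totals shifted every ratio of this pair upward by 0.37 and the median of all genes by 0.36. By that scaling edgeR called 38 of the 41 as risen, where it called 44.4% of all genes as risen and 15.5% as fallen.

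The share of mitosis genes can be read within a library, where no scaling enters. It also depends on the starting levels and is weighted towards abundant genes. In OGT control the sums were 68.7 CPM for mitosis and 236 CPM for replication genes. Mitosis genes took 41.4% of the summed counts of the 41 genes in OGT-KO (exact binomial interval 40.8% to 42.1%), against 22.5% in OGT control, 21.6% in OGA-KO and 24.4% in OGA control at day 28, and 22.5% in OGA-KO and 25.3% in OGA control at day 14. The 5 libraries other than OGT-KO thus lay close together, between 21.6% and 25.3%. Without Ccnf, the share was 40.2% in OGT-KO and 15.4% to 17.97% in the others. The mean log2 CPM of mitosis genes minus that of replication genes gives each gene equal weight. It was -0.04 in OGT-KO, -1.38 in OGT control and -1.55 to -1.21 in the OGA libraries.

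**Figure D4:**
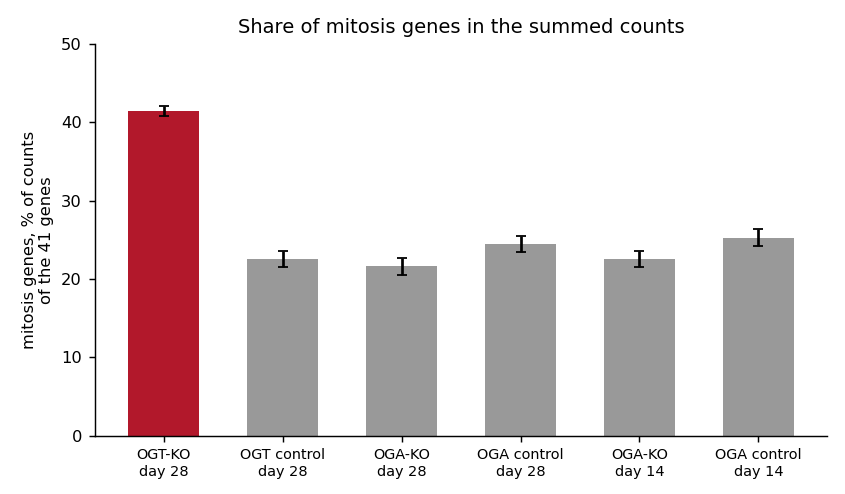
Share of the 18 mitosis genes in the summed counts of the 41 genes, in percent, for each of the 6 pooled libraries. Bars start at 0 and error bars are exact 95% binomial intervals. OGT-KO stands at 41.4% and the other libraries between 21.6% and 25.3%.

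Among the replication genes, those with an E2F site in their window had a median log2 ratio of 1.06 in OGT-KO (n = 10), against 0.68 for those without one (n = 10). The replication genes with a CHR had a median of 1.43 (n = 5), against 0.91 without one (n = 15). Those with a CCAAT box had a median of 1.06 (n = 14), against 0.80 without one (n = 6). Among the mitosis genes the 12 with a CHR had a median of 2.75 and the 3 without one, Mad2l1, Birc5 and Nusap1, a median of 1.68. The ranges overlapped in each case, and no test was made.

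Markers of other liver cells went both ways in the OGT-KO library. Stellate cell, macrophage, cholangiocyte and neutrophil sums were higher than in OGT control, and endothelial and erythroid sums were lower. Stellate cell markers (9 of 10 with a row) summed to 2340 CPM in OGT-KO, against 279 CPM in OGT control and 168 to 246 CPM in the OGA libraries. Macrophage markers (11 of 12) summed to 1246 CPM in OGT-KO, against 364 CPM in OGT control and 193 to 242 CPM in the OGA libraries. Cholangiocyte markers (7 of 8) summed to 495 CPM in OGT-KO, against 101 CPM in OGT control and 68.7 to 84.4 CPM in the OGA libraries. Endothelial markers (8 of 8) summed to 154 CPM in OGT-KO, against 168 CPM in OGT control and 175 to 188 CPM in the OGA libraries. By gene, 5 endothelial markers lay above 0 in OGT-KO against OGT control and 3 below, with a median log2 ratio of 0.17. The ratio of the endothelial sums was log2 -0.12, and library totals shift this pair upward by 0.37, so the direction of that sum depended on the scaling. Neutrophil markers (4 of 7) summed to 19.1 CPM in OGT-KO and 2.77 CPM in OGT control, with 1 of the 4 at 0 in OGT control, and to 3.51 to 6.98 CPM in the OGA libraries. Erythroid markers (5 of 7) summed to 57.6 CPM in OGT-KO, against 188 CPM in OGT control and 268 to 354 CPM in the OGA libraries. All 5 erythroid markers lay below 0 in OGT-KO against OGT control, with a median log2 ratio of -0.44. Only 1 of the 5 was at least 2-fold lower, at log2 -4.08, and it weighed on the sum. Of 12 T, NK and B cell markers 1 had a row, at 1.33 CPM in OGT-KO, 1.69 CPM in OGT control and 2.57 to 3.84 CPM in the OGA libraries. The part of these cells in the division genes was not tested, and which cells held the division transcripts was not measured.

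In the other genes of both pathways, from a list chosen with earlier results known, the mitosis genes again had the higher median ratio. Of 68 other mitosis genes 32 had a row. Of the 32, 21 were at least 2-fold higher in OGT-KO than in OGT control and 0 lower, with a median log2 ratio of 1.5. Of 71 other replication genes 56 had a row, with 13 at least 2-fold higher, 3 lower and a median of 0.41. The same rule passed 16.4% of all genes as higher and 11.7% as lower. The summed level was 2.02-fold that of OGT control for the other mitosis genes and 1.03-fold for the other replication genes. Genes without a row, among them Ccnb1, Plk1 and Aurkb of mitosis and Cdc6, Orc1 and Uhrf1 of replication, were not analysed here. Every row held at least 28 counts over the 4 OGA libraries, so genes expressed mainly in the OGT libraries had less chance of a row.

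The highest of the other mitosis genes in OGT-KO were Ckap2, a spindle protein, with 426 counts in OGT-KO and 26 in OGT control (log2 3.67), Tacc3, another spindle protein, with 400 and 31 (3.34), and Incenp, the scaffold of the passenger complex, with 650 and 67 (2.97), and all 3 rose by edgeR. The lowest were Pttg1, which encodes securin (log2 -0.66), Anapc11 of the APC/C (-0.40) and Zw10 of the checkpoint (-0.25), and edgeR called none of these 3 (smallest adjusted p = 0.0597). The highest of the other replication genes were Wdhd1 (log2 2.94), Brca1 (2.51) and Chaf1b (1.93), which rose. The lowest were Mcm10, with 482 counts in OGT-KO and 1758 in OGT control (log2 -2.14), Paics (-1.04) and E2f8 (-1.01), which fell. Mcm10, a factor that activates the helicase, held 1912 to 2063 counts in the 4 OGA libraries. Exon overlaps with other genes were not checked for Mcm10 or for the rest of the wider lists, so the source of these reads is uncertain.

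In OGA-KO livers the same genes lay level with their controls or below them. At day 28, 0 of 18 mitosis genes were 2-fold higher and 3 were 2-fold lower in OGA-KO than in OGA control (Mki67, Bub1b and Cdc20), where 1.7% of all genes were 2-fold higher and 0.869% lower. Of the replication genes 0 of 23 were 2-fold higher and 0 lower. The median log2 ratio was -0.43 for mitosis and -0.28 for replication genes, against 0.00 for all genes. Counting intervals lay wholly below 0 for 8 mitosis and 9 replication genes and wholly above 0 for 1 gene, Cdc45, where 20.3% of all genes lay below and 22.2% above. At day 14, 0 of the 41 genes were 2-fold higher or lower (0.534% and 0.305% of all genes), the medians were -0.27 and -0.05, and intervals lay wholly below 0 for 4 mitosis genes and 1 replication gene and above 0 for 1, Cdk1 (14.8% of all genes below and 16.9% above).

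By gene, Mki67 differed most at day 28, with 35 counts in OGA-KO and 96 in OGA control (log2 -1.33, interval -1.98 to -0.80), and with 69 in OGA-KO and 76 in OGA control at day 14 (-0.27, interval -0.77 to 0.21). Bub1b had 11 counts in OGA-KO and 30 in OGA control at day 28 (log2 -1.23, interval -2.51 to -0.33), on which a few reads weigh. Cdc20 had 20 counts in OGA-KO and 51 in OGA control at day 28 (log2 -1.19, interval -2.09 to -0.50) and 45 in OGA-KO and 66 in OGA control at day 14 (-0.67, interval -1.27 to -0.13). The genes below 0 by their counting interval at both days were Cdc20, Cdca8, Prc1 and Ccnf of mitosis and Rfc1 of replication, 5 of the 41, against 6.4% of all genes. Cdca8 lay at -0.78 and -0.91 and Prc1 at -0.75 at each day. Cdk1 was the exception at day 14, with 56 counts in OGA-KO and 28 in OGA control (log2 0.82, interval 0.18 to 1.57).

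**Figure D5:**
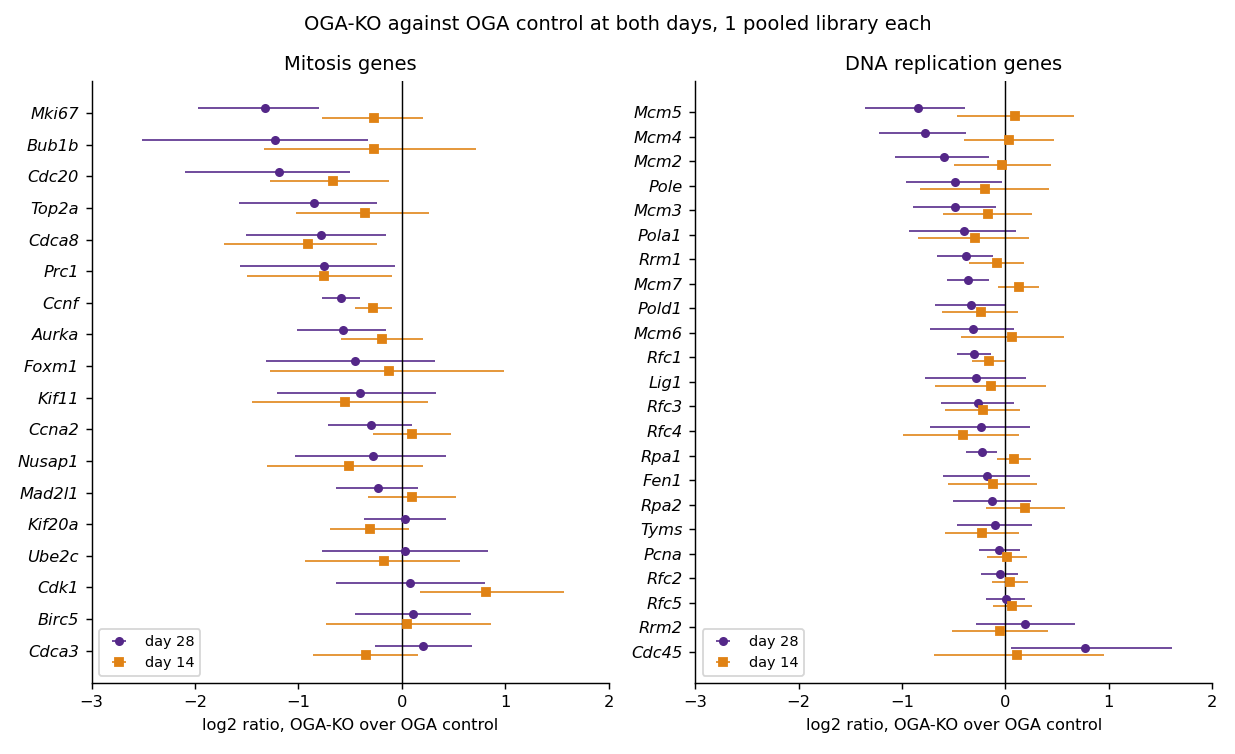
Log2 ratio of OGA-KO to OGA control at day 28 (circles) and day 14 (squares) for each mitosis gene (left) and replication gene (right), ordered by the day 28 ratio. Points are ratios of 1 pooled library each and bars are 95% counting intervals. Mki67, Bub1b and Cdc20 lie below -1 at day 28, and the MCM genes lie below 0 at day 28 and near 0 at day 14.

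Over both days edgeR called 0 of the 41 genes in OGA-KO, with 7 at an unadjusted p under 0.05 (13% of all genes) and a smallest adjusted p of 0.301 (Ccnf). DESeq2 called 0 with 0 at an unadjusted p under 0.05 (2.48% of all genes). In OGA-KO edgeR called 0.0249% of all genes as risen and 0.00832% as fallen, and DESeq2 called 0.208% and 0.0915%. Both days lay below 0 for 11 of 18 mitosis genes and 12 of 23 replication genes, against 30.5% of all genes. Acinar cell markers of the pancreas (11 of 12 with a row) summed to 213 CPM in the OGA-KO library of day 28, against 27.3 CPM in OGA control of that day, and 9 of the 11 were at 0 in the other 3 OGA libraries. The part of such cells in the day 28 ratios was not tested.

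The MCM subunits lay on the same side of their control at day 28. In OGA-KO against OGA control, 6 of 6 subunits were below 0 at day 28 (log2 -0.84 to -0.31, 5 of 6 with an interval wholly below 0), and they lay between -0.17 and 0.13 at day 14. Mcm5 had 56 counts in OGA-KO and 108 in OGA control at day 28 (log2 -0.84, interval -1.36 to -0.39), and 60 in OGA-KO and 51 in OGA control at day 14 (0.09, interval -0.47 to 0.66). Mcm4 had 74 counts in OGA-KO and 136 in OGA control at day 28 (log2 -0.78, interval -1.22 to -0.38), and 97 in OGA-KO and 86 in OGA control at day 14 (0.03, interval -0.40 to 0.47). The difference between the days had a counting interval that excluded 0 for Mcm4, Mcm5, Mcm7 and Rpa1 of replication and for Mki67 and Ccnf of mitosis, 6 of the 41, against 29.4% of all genes. Of the 23 replication genes 19 had a lower OGA-KO ratio at day 28 than at day 14, against 49.7% of all genes, and so did 11 of 18 mitosis genes.

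The MCM subunits were also compared between the days within each genotype. In OGA control 6 of 6 were higher at day 28 than at day 14 (log2 0.25 to 0.96, with 6 of 6 counting intervals above 0), and in OGA-KO they lay between -0.26 and 0.38, with Mcm6 the highest. The replication genes had a median log2 ratio of 0.24 in OGA control between day 28 and day 14 and 8 of 23 intervals wholly above 0, where 16.5% of all genes lay above. For the mitosis genes the median was 0.19, with 3 of 18 intervals above 0. Intervals lay below 0 for 0 of the 41, against 14.5% of all genes. In OGA-KO the medians between the days were 0.06 for replication and -0.08 for mitosis genes, with intervals above 0 for 3 of the 41 and below 0 for 3 (17.4% and 15.9% of all genes). Among the 4 OGA libraries the OGA control of day 28 held the highest level of 18 of 23 replication genes and of 9 of 18 mitosis genes, against 26% of all genes. This library is shared by the knockout pair of day 28 and the pair of control days, so the low ratios of one and the high ratios of the other are not independent.

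No member was 2-fold higher or lower between the days, either in OGA-KO (0.97% of all genes higher and 0.346% lower) or in OGA control (0.519% and 0.408%). With other settings 1 gene passed in each: Cdc20 was 2-fold lower in OGA-KO by library totals or with a prior count of 0.5 (log2 -1.01 and -1.02), and Foxm1 was 2-fold higher in OGA control with DESeq2 size factors or that prior count (1.01 and 1.06). Birc5 was higher at day 28 in both, with 57 counts at day 28 and 31 at day 14 in OGA-KO (log2 0.96, interval 0.35 to 1.69) and 56 at day 28 and 27 at day 14 in OGA control (0.91, interval 0.27 to 1.68). Pole was likewise higher at day 28 in both genotypes, at log2 0.68 in OGA-KO and 0.97 in OGA control. Foxm1 was at log2 0.996 in OGA control on 34 counts at day 28 and 15 at day 14 (interval 0.17 to 2.07). Cdc20 and Mki67 were lower at day 28 in OGA-KO. Cdc20 had 20 counts at day 28 and 45 at day 14 in OGA-KO (log2 -0.98, interval -1.88 to -0.25), and Mki67 had 35 counts at day 28 and 69 at day 14 in OGA-KO (log2 -0.82, interval -1.48 to -0.24). Over the OGA line edgeR called 0 of the 41 for day, with 6 at an unadjusted p under 0.05 (7.19% of all genes) and a smallest adjusted p of 0.481, where it called 0.0333% of all genes as higher and 0 as lower. DESeq2 called 0 with 0 at an unadjusted p under 0.05 (1.1% of all genes), where it called 0.0665% as higher and 0.0166% as lower.

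The 2 controls of day 28 were close to each other for most members. In OGT control against OGA control, the mitosis genes had a median log2 ratio of 0.07 and the replication genes of 0.09. None of the 18 mitosis genes reached 2-fold, and 2 of 23 replication genes did, Rrm2 and Mcm6, where 4.72% of all genes were 2-fold higher and 5.7% lower. Rrm2 had 195 counts in OGT control and 73 in OGA control (log2 1.57, interval 1.20 to 2.01), and Mcm6 had 242 in OGT control and 119 in OGA control (log2 1.19, interval 0.88 to 1.53). Aurka and Rfc4 lay lowest, at -0.85 and -0.76. Counting intervals lay above 0 for 10 of the 41 and below 0 for 6, against 33.3% and 33.4% of all genes. By library totals, which raised the ratios of this pair by 0.23, the sign of 5 mitosis and 2 replication genes changed. The medians were then 0.29 and 0.31, against 0.225 for all genes. For Rrm2 the 5 libraries other than OGT-KO split by line, with 195 counts in OGT control and 73 to 83 in the OGA libraries. Mcm6 did likewise, at 10.5 CPM in OGT control and 2.65 to 4.55 CPM in the OGA libraries. Among these 5 libraries OGT control held the highest level of 25 of the 41 genes and the lowest of 7. It held the highest of 13 and the lowest of 8 of the 32 other mitosis genes, and the highest of 24 and the lowest of 19 of the 56 other replication genes. The share over all genes was not computed, so these counts are not a result particular to division genes.

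Set side by side, the OGT-KO effect stood above the OGA-KO effect for most members in the joint edgeR fit. The difference passed for 35 of 41 genes, 17 of mitosis and 18 of replication, all with the OGT-KO effect higher, where 21.4% of all genes passed as higher and 22.7% as lower. Prc1 had the smallest adjusted p, at a difference of 4.43 on the log2 scale (edgeR adjusted p = 0.000717), followed by Top2a at 3.71 (0.00111). DESeq2 passed 15 of the 41, all higher, where it passed 5.94% of all genes as higher and 11.2% as lower. The knockout groups come from separate lines of mice, and the fit compares each knockout with the control of its own line. The times were unlike, since the OGT-KO effect came from day 28 only and the OGA-KO effect was taken over day 14 and day 28.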

How the data were processed

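RNA from about 50 mg of liver was sequenced in 2 lanes per pool, per the labels. The deposited table of counts held raw whole-number counts per Ensembl gene, and the submitters' processing notes name STAR, Subread, edgeR and the build mm39 without versions. Strand settings and the filter on rows are not given in the sources used here. The authors' deposited CPM table served only as a check: its divisor equalled the column total in the OGA columns and exceeded it by 158367 in OGT-KO and by 22723 in OGT control. Symbols were found for 12019 of 12027 identifiers.

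Log2 ratios took a prior count of 2 and CPM from TMM effective sizes, computed in R 4.3.3 with edgeR 4.0.16, with exact Clopper-Pearson 95% intervals (SciPy 1.17.1). With 1 library per group, sizes were described by a rule of 2-fold where the higher of both libraries reached 1 CPM. edgeR's quasi-likelihood test fitted all 6 libraries with 5 coefficients (intercept, line, day, OGA-KO, OGT-KO), and DESeq2 1.42.0 was an alternative. The code was tested on simulated counts. Promoter windows were RefSeq's on GRCm38.p6, and exon overlaps came from GENCODE on the same build. The 41 members, the wider lists, the markers and the tests were chosen with earlier results of these data known. Named with counts in all libraries were the members with the highest and lowest OGT-KO ratio of each role, plus Mki67, Top2a, Ccna2, Mcm2, Pcna, Rrm1 and Rrm2. Of the wider lists, the 3 highest and 3 lowest OGT-KO ratios were named. Windows printed were those of the 3 highest genes of each group and of the lowest replication gene, with 2 MCM genes added after the search and, for several starts, the window with most motifs.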

Additional observations from a re-analysis of the deposited data

Results flagged for a closer look

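The OGT-KO and OGA-KO effects differed for 35 of the 41 genes in the joint edgeR fit (Benjamini-Hochberg adjusted p under 0.05), with the OGT-KO effect the higher in each of the 35. The difference of the effects itself was tested, over 6 libraries with 1 residual degree of freedom. It set an OGT-KO effect of day 28 against an OGA-KO effect over both days. The genes that did not pass were Ccnf, Mcm7, Pcna, Rfc2, Rpa1 and Rpa2.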

How the results depend on the processing

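Among 223 summary values (counts and medians over the lists) recomputed under other settings, none of the medians changed sign, and a count cannot. Of the 223 values, 23 counts changed by over 1.5 times. The medians in these 223 stayed between the medians of their genes' interval bounds. Under a 1.5-fold rule, the counts of higher mitosis genes were 1 in OGA-KO at day 14, 1 in OGA-KO between the days, 2 in OGA control between the days and 1 between the controls. The counts of higher replication genes were then 17 in OGT-KO, 1 in OGA-KO at day 28, 1 in OGA-KO between the days, 3 in OGA control between the days and 4 between the controls. Scaling by library totals gave 17 replication genes 2-fold higher in OGT-KO. DESeq2 size factors, and a prior count of 0.5, each gave 1 mitosis gene (Foxm1) 2-fold higher in OGA control between the days. DESeq2's test called 20 genes for OGT-KO and 15 for the difference of the knockout effects. The count of 3 mitosis genes 2-fold lower in OGA-KO at day 28 was 1 with a prior count of 10, and 6 under a 1.5-fold rule. Without the OGA-KO library of day 28 and the day term, edgeR called 35 genes as risen and 1, Ccnf, as fallen in OGT-KO. That last fit, and one on the 4 OGA libraries alone, were chosen after seeing the data. No paired analysis was possible because each group has 1 library and the labels give no replicate numbers, so no replicate could be left out of a group either. Mitosis genes had few counts outside OGT-KO, from 11 to 663 in the OGA libraries, which limits what their ratios there can show.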
